A study of Nothobranchius furzeri with 20 samples.

Results

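The comparison described here is the lower dose step of a rotenone experiment in the turquoise killifish Nothobranchius furzeri: skin of 9-week-old males given 1% of LC50 against skin of 9-week-old males given 0.1% of LC50. LC50 is the concentration that kills the median animal, so each dose is stated as a share of it. The comparison takes 10 of the 20 RNA sequencing libraries of the series, 5 at each dose, chosen by the dose and age in their labels. The other 10 libraries hold 10% of LC50 at 9 weeks and 1% of LC50 at 27 weeks, 5 of each. All fish were males of the strain MZM-04/10p, and all received rotenone: no library analysed here comes from untreated skin, so the baseline of this comparison is itself a treated group. The labels give neither the duration nor the route of exposure, and they do not state that each library is a separate fish. The p-values therefore refer to the variation among libraries, which may be partly technical. Of 26739 genes listed, 18044 had enough reads in enough libraries to be tested. Of the remaining 8695 genes 3935 had 0 reads in all 10 libraries. The other 4760 had reads, at most 6043 over the 10 libraries, so a gene high in only a few libraries could be left untested.

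Rotenone blocks mitochondrial complex I, the respiratory chain enzyme that passes electrons from NADH to ubiquinone and pumps protons across the inner membrane. Its inhibition lowers ATP production and can raise the formation of reactive oxygen species, and rotenone has long been used as a fish poison. Fish skin is a living epidermis with mucus-secreting cells over a dermis that carries scales, pigment cells, vessels, nerves and connective tissue, and a piece of skin can bring underlying muscle with it. In RNA from such a piece, fewer cells of a type and less RNA per cell cannot be told apart.

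The deposited files list genes by identifier alone, and a RefSeq table of gene names held 0 of the 26739. Genes of the respiratory chain, of stress responses or of skin cell types could therefore not be looked up, and the tissue label could not be checked against markers. The results below describe which share of the transcriptome differed, by how much and in which libraries, with 4 genes given by identifier.

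Dose coincided with the deposited count table: the 5 libraries at 1% stand in 1 table and the 5 at 0.1% in another, so a difference between tables and a difference between doses cannot be told apart from these counts. The authors' RPKM values show how the tables are related. RPKM are reads scaled by gene length and library total, but in these values the divisor of a library changed from row to row. For all 20 libraries, from both tables, the divisors behind the RPKM followed 1 common cycle of 35 values, with a largest deviation of 1.62e-05 log2. Each of the 20 count totals recurred as its own entry of that cycle to within 0.000665%. In addition, the RPKM of replicate 1 at 0.1% stand in both RPKM tables and were identical for all 26739 genes. The RPKM of both tables thus rest on 1 vector of 35 divisors, of which 20 entries were matched to library totals. These values do not bear on when the fish were kept, or when RNA was extracted and sequenced.

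Libraries held between 21770720 and 26962187 reads counted on genes, and the totals of the doses did not differ beyond the spread (exact permutation test, two-sided, p = 0.302, 0.821 after Benjamini-Hochberg adjustment over 3 summaries, n = 5 each). At least 1 read was found for 20985 to 21448 genes at 1% and for 20868 to 21932 genes at 0.1% (exact permutation p = 0.548, adjusted 0.821). The share of reads in a library's 10 most abundant genes was 17.48% ± 5.11 at 1% and 17.9% ± 4.90 at 0.1% (SD, n = 5 each), with an exact permutation p of 0.889 (adjusted 0.889). None of these 3 summaries passed its test; the smallest p that 5 against 5 allows is 0.00794.

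Replicates 1 and 4 at 0.1% stood apart before any gene was tested. On the first principal component of the 10 libraries, which held 40.0% of the variance, they lay at 110 and 93.2. The 5 libraries at 1% lay between -39.5 and 0.034 and the other 3 at 0.1% between -27.5 and -12.9, so this component did not follow dose. On the second component, with 16.3% of the variance, the 5 libraries at 1% lay between -40.7 and -1.41, and replicates 2, 3 and 5 at 0.1% between 35.7 and 59.4. Replicates 1 and 4 at 0.1% lay at -14.4 and 0.60, inside or next to the range of the 1% libraries. They also had the most genes with at least 1 read, 21828 and 21932, against 20868 to 21105 in the other 3 at 0.1%. Counts of called genes, fold sizes, the genes given by identifier and the medians by length are therefore given with and without these libraries.

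At 1% of LC50, 663 genes were higher and 496 lower than at 0.1% (edgeR quasi-likelihood test on the 10 libraries, Benjamini-Hochberg adjusted p under 0.05, "called" in what follows). The 1159 called genes are 6.42% of those tested, 3.67% for the higher and 2.75% for the lower direction. An unadjusted p under 0.05 in the same edgeR test was found for 4714 genes, 2123 higher and 2591 lower. The excess of higher genes among those called was thus reversed at this looser threshold. Sizes of change among called genes are given as a description. With all 10 libraries the median change was 2.11-fold among genes lower at 1% and 1.79-fold among genes higher at 1%. The median SE of the log2 change was 0.23 for the lower and 0.17 for the higher genes. A gene with a larger SE needs a larger change to be called. A change of at least 4-fold was found for 62 lower and 12 higher genes, and one of at least 8-fold for 16 lower genes and 1 higher gene. At least 2-fold changes were found for 276 of the 496 lower and 213 of the 663 higher genes. Less than 1.5-fold were 105 higher and 30 lower genes, and the smallest called change was 1.31-fold. Without replicates 1 and 4 at 0.1% the medians were closer, 2.13-fold for 278 lower and 1.90-fold for 731 higher genes. At least 2-fold were then 163 lower and 310 higher genes, and at least 4-fold 41 lower and 18 higher genes. At least 8-fold were then 9 lower and 3 higher genes. The largest called change, a single gene in each fit, turned. With all 10 libraries it was a decrease of 30.5-fold, where the largest increase was 9.36-fold. Without both it was an increase of 176-fold, where the largest decrease was 27.0-fold.

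**Figure D1:**
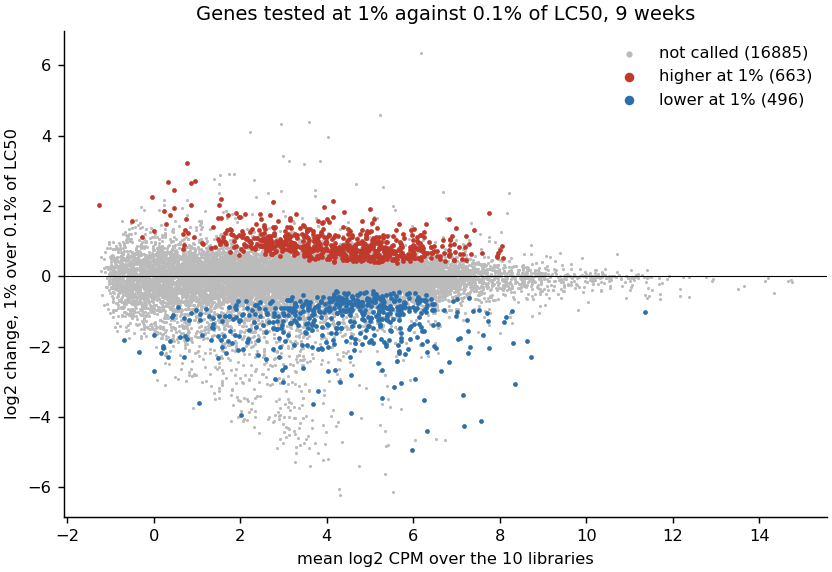
Each point is 1 of 18044 genes tested, with edgeR's average log2 CPM (CPM, a gene's reads scaled by the TMM-adjusted library total) over the 10 libraries on the x axis and its log2 change, 1% over 0.1% of LC50, on the y axis; colours mark the genes called by edgeR, 663 higher and 496 lower at 1%. The lower genes reach further from 0, and many grey points below -2 were large differences that were not called.

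In reads, the 2 lists were small parts of the transcriptome. The genes higher at 1% made up 2.78% ± 0.335 of all reads at 1% and 1.51% ± 0.215 at 0.1% (SD, n = 5 each). The genes lower at 1% made up 1.27% ± 0.323 at 1% and 2.88% ± 0.807 at 0.1%. These genes were chosen for their difference between these libraries, so the shares describe the lists and are not tested.

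All 5 libraries at 1% lay above or below all 5 at 0.1% in CPM for 1644 genes, which is 9.11% of those tested: 1013 were higher and 631 lower at 1%. Of these, 578 of the higher and 404 of the lower genes were also called, and 662 were not. Conversely, 85 higher and 92 lower genes were called although their groups overlapped.

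The number of called genes changed when single libraries were left out. Each such fit also has 1 library fewer, and the part of that in the counts was not tested. Leaving out a 1% library gave 339 (replicate 1), 407 (replicate 2), 1598 (replicate 3), 447 (replicate 4) or 501 (replicate 5). Leaving out a 0.1% library gave 944 (replicate 1), 706 (replicate 2), 997 (replicate 3), 399 (replicate 4) or 420 (replicate 5). Without replicate 2 at 0.1% the excess of higher genes turned (348 higher, 358 lower). A core was called with all 10 libraries and in each of the 10 fits that left 1 library out. It held 176 higher and 110 lower genes, of 18044 tested with all 10 libraries. Within this core the median change was 2.92-fold for the lower genes and 2.03-fold for the higher genes, and 28 lower and 4 higher genes changed at least 4-fold. These fits share libraries, and staying called in all of them favours larger changes, so the sizes are a description.

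The genes given by identifier were taken from those called with and without replicates 1 and 4 at 0.1%, at a mean of 1 or more on the log2 CPM scale and with doses that did not overlap. There were 339 such genes higher at 1% and 194 lower. In each direction the gene with the largest change and the gene with the highest mean log2 CPM are given. No overlap in CPM was a condition of their choice.

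Nfu_g_1_006417 had the largest increase of these genes. Its level was 32.5, 26.6, 15.001, 40.5 and 27.2 CPM in replicates 1 to 5 at 1%, against 7.15, 6.29, 7.61, 5.88 and 4.63 CPM in replicates 1 to 5 at 0.1%. Every library at 1% was at least 15.001 CPM and no library at 0.1% was over 7.61 CPM, with replicate 3 the lowest at 1%. The mean was 28.4 ± 9.32 CPM at 1% and 6.31 ± 1.16 CPM at 0.1% (SD, n = 5 each), a log2 change of 2.15 (SE 0.25, edgeR adjusted p = 0.00528). This is a short transcript of 327 bases, as recovered from counts and RPKM, and it rested on 428 to 976 reads a library at 1% and 98 to 182 at 0.1%. It was called in each of the 21 alternative fits tried, and its log2 change there ran from 1.99 to 2.31. These fits share libraries, and they include the fit that was a condition of its choice. At 10% of LC50 its level was 9.25 ± 2.94 CPM, and at 27 weeks, also at 1% of LC50, it was 18.2 ± 4.57 CPM.

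Nfu_g_1_020032 had the highest mean level of the 339 higher genes. It was at 334, 296, 234, 388 and 344 CPM in replicates 1 to 5 at 1%, and at 205, 176, 191, 172 and 194 CPM in replicates 1 to 5 at 0.1%. Again replicate 3 was the lowest library at 1%, and the gap to the highest library at 0.1% was narrow. The log2 change was 0.75 (SE 0.15, edgeR adjusted p = 0.0199). Its call was lost without replicate 1 at 1% (edgeR adjusted p = 0.0541) and without replicates 4 or 5 at 0.1% (0.0545 and 0.0508). At 10% it was at 212 ± 25.2 CPM and at 27 weeks at 281 ± 43.5 CPM (SD, n = 5 each).

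Nfu_g_1_018306 had the largest decrease of these genes. It was at 0.212, 1.57, 9.95, 7.51 and 0.275 CPM in replicates 1 to 5 at 1%, against 210, 124, 39.5, 57.9 and 162 CPM in replicates 1 to 5 at 0.1%. The gene was near its floor in replicates 1 and 5 at 1%, with as few as 5 reads, while the lowest library at 0.1% still held 883 reads. The mean was 3.90 ± 4.52 CPM at 1% and 119 ± 70.9 CPM at 0.1% (SD, n = 5 each), and the fitted log2 change was -4.93 (SE 1.01, edgeR adjusted p = 0.0210). The call was lost without replicate 2 at 1% (edgeR adjusted p = 0.0593) and without replicate 5 at 0.1% (0.0506). Levels were also uneven among the other groups, from 3.82 to 58.5 CPM at 10% and from 2.91 to 61.2 CPM at 27 weeks.

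Nfu_g_1_012981 had the highest mean level of the 194 lower genes. Its level was 122, 176, 220, 159 and 183 CPM in replicates 1 to 5 at 1%, against 430, 395, 418, 754 and 1025 CPM in replicates 1 to 5 at 0.1%. All 5 libraries at 1% were close together, and replicates 4 and 5 at 0.1% were far above the other 3. The log2 change was -1.83 (SE 0.30, edgeR adjusted p = 0.0110). The gene was called in all 21 alternative fits, which include the fit that was a condition of its choice. Log2 changes there lay between -1.95 and -1.57. At 10% its 5 libraries lay between 388 and 458 CPM, above every library at 1% and 9 weeks and overlapping the range at 0.1%. At 27 weeks they ran from 187 to 627 CPM, which overlaps all 3 doses at 9 weeks. On a scale that allows for length, its mean was 33.2 ± 8.02 RPKM at 1% and 112 ± 52.2 RPKM at 0.1%, from counts, library totals and a length of 5430 bases.

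Without replicates 1 and 4 at 0.1% the log2 change was 2.22 for Nfu_g_1_006417 and 0.80 for Nfu_g_1_020032 (edgeR adjusted p = 0.0204 and 0.0385). It was -4.76 for Nfu_g_1_018306 and -1.81 for Nfu_g_1_012981 (edgeR adjusted p = 0.0382 and 0.0239). All 4 were chosen to be called in this fit as well.

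**Figure D2:**
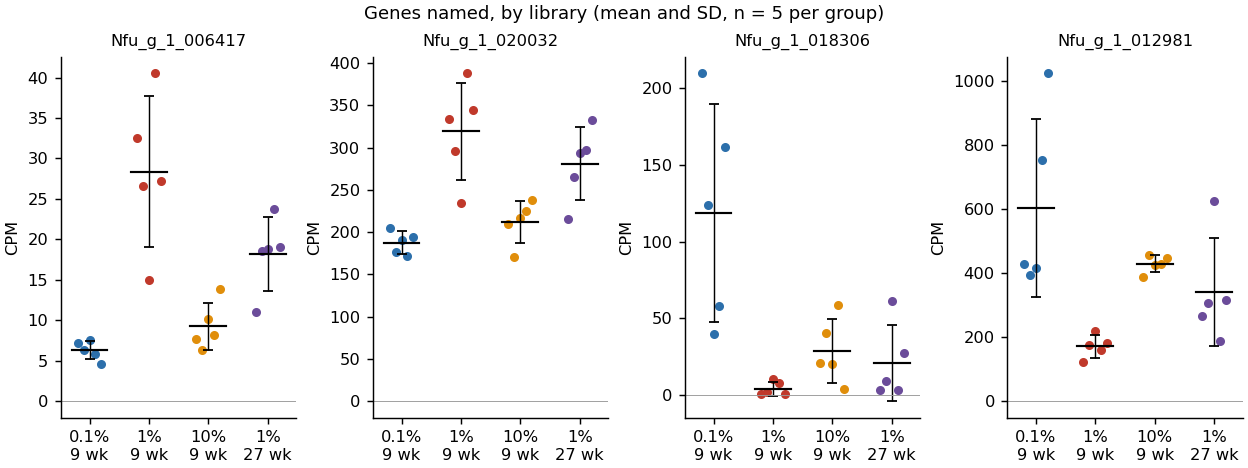
CPM of the 4 genes given by identifier in each of the 20 libraries, on linear axes that include 0, with the mean (bar) and SD (whiskers) of 5 libraries a group; the 3 doses at 9 weeks run from low to high and the 27-week group stands last. In Nfu_g_1_006417 the 5 libraries at 1% lie between 15.001 and 40.5 CPM, above all at 0.1%, and in Nfu_g_1_012981 they lie between 122 and 220 CPM, below all at 0.1%.

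The 10 largest increases and decreases under the same conditions differed in size. These conditions include a mean log2 CPM of at least 1. The largest called increase, 9.36-fold, did not meet the conditions, whereas the largest called decrease, 30.5-fold, did. Of all called genes, 12 rose at least 4-fold and 16 fell at least 8-fold. Among the increases that met the conditions rank 3 was already 3.96-fold, so most called increases of at least 4-fold were left out. The ranges below therefore describe the genes that met the conditions, not all called genes. The 10 increases ran from 3.20 to 4.43-fold, with mean levels between 4.44 and 50.3 CPM at 1% and between 1.08 and 13.1 CPM at 0.1%. The 10 decreases ran from 8.26 to 30.5-fold, with means between 1.86 and 70.1 CPM at 1% and between 22.6 and 569 CPM at 0.1%. Their adjusted p ran from 0.00528 to 0.0398 for the increases and from 0.00404 to 0.0210 for the decreases (edgeR). Replicate 3 at 1% was the lowest library of its dose in 9 of the 10 increases and the highest in 8 of the 10 decreases.

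**Figure D3:**
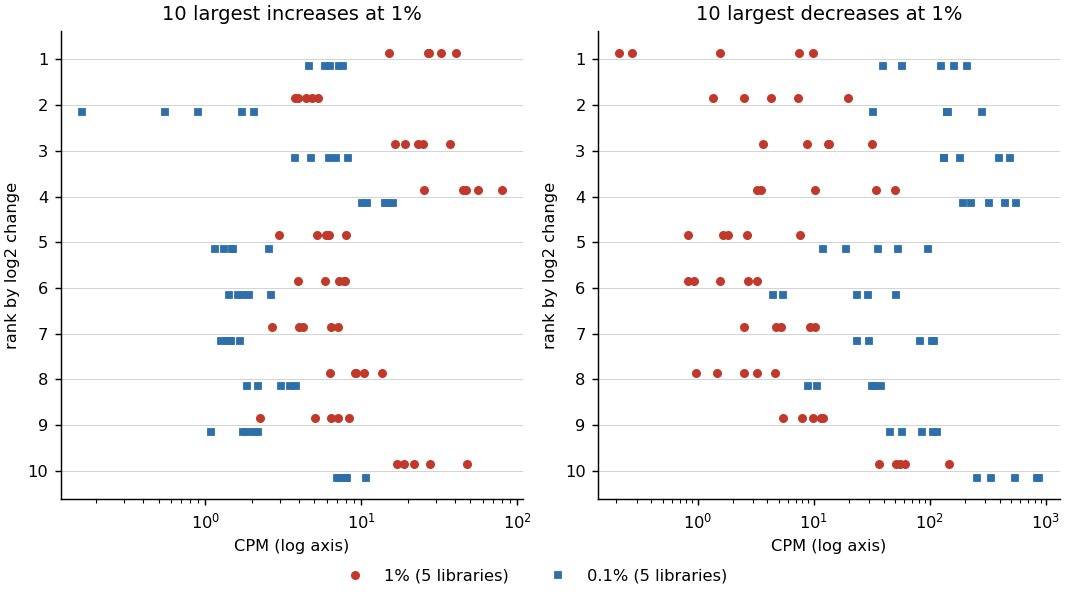
CPM on a log axis in each library for the 10 largest increases (left) and decreases (right) at 1% among the 339 higher and 194 lower genes called with and without 0.1% replicates 1 and 4, ranked by log2 change; circles are the 5 libraries at 1% and squares the 5 at 0.1%. The decreases shown, at 8.26 to 30.5-fold, are larger than the increases shown, at 3.20 to 4.43-fold, and no overlap was a condition of the choice. Called genes that missed the conditions, among them larger increases of up to 9.36-fold, are not shown.

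Replicate 3 held the same place over the whole lists. Replicate 3 at 1% was the lowest of the 5 libraries at 1% for 504 of the 663 higher genes (76.0%), and for 21.4% of all genes tested. It was the highest of them for 361 of the 496 lower genes (72.8%), and for 22.4% of all genes tested. Set against the mean of the 0.1% libraries, the median log2 level of the higher genes was 0.93, 0.79, 0.51, 1.01 and 0.92 in replicates 1 to 5 at 1%. For the lower genes it was -1.14, -1.09, -0.65, -1.18 and -1.19. Replicate 3 was thus nearest to the 0.1% level in both lists. This library also had the most reads at 1%, 25624624, and the smallest share of reads in its 10 most abundant genes, 12.2%, against 12.95% to 23.8% in the other 4, and the part of either value in the result was not tested. Without it 859 higher and 739 lower genes were called.

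Among the 0.1% libraries replicate 5 stood highest in the lower list. The median log2 level of the higher genes ran from -0.10 to 0.09 around their mean, and that of the lower genes from -0.22 in replicate 3 to 0.23 in replicate 5. Replicate 5 was the highest of the 5 libraries at 0.1% for 256 of the 496 lower genes (51.6%), and for 22.51% of all genes tested. Replicates 1 and 4, which stood apart on the first component, were at 0.03 and 0.09 in the lower and at 0.03 and -0.10 in the higher list. They were thus inside the range of the other 3 in the lower list, and replicate 4 was the lowest in the higher list.

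At 10% of LC50 and at 27 weeks, in libraries that took no part in choosing the lists, the group means of both lists lay between those at 0.1% and 1%. The median log2 level of the higher genes was 0.27 ± 0.16 (SD, n = 5) at 10% and 0.55 ± 0.13 at 27 weeks, on a scale where the libraries at 1% and 9 weeks averaged 0.83 and those at 0.1% averaged 0.0018. For the lower genes it was -0.35 ± 0.086 at 10% and -0.58 ± 0.14 at 27 weeks, where 1% at 9 weeks averaged -1.05. Single libraries of these groups overlapped. In the higher list 10% reached down to 0.044, with 0.1% up to 0.093, and 27 weeks reached up to 0.684, with 1% down to 0.510. In the lower list 10% reached up to -0.217, with 0.1% down to -0.224. There 27 weeks reached down to -0.787, with 1% up to -0.650. A list chosen for being extreme in these libraries is less extreme in others by its choice alone. The scale is set by the 0.1% libraries, which helped to choose the lists, so the direction is also partly fixed by the choice. These levels are a description. All 20 genes of the largest increases and decreases likewise had their means at 10% and at 27 weeks between those at 1% and 0.1%.

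**Figure D4:**
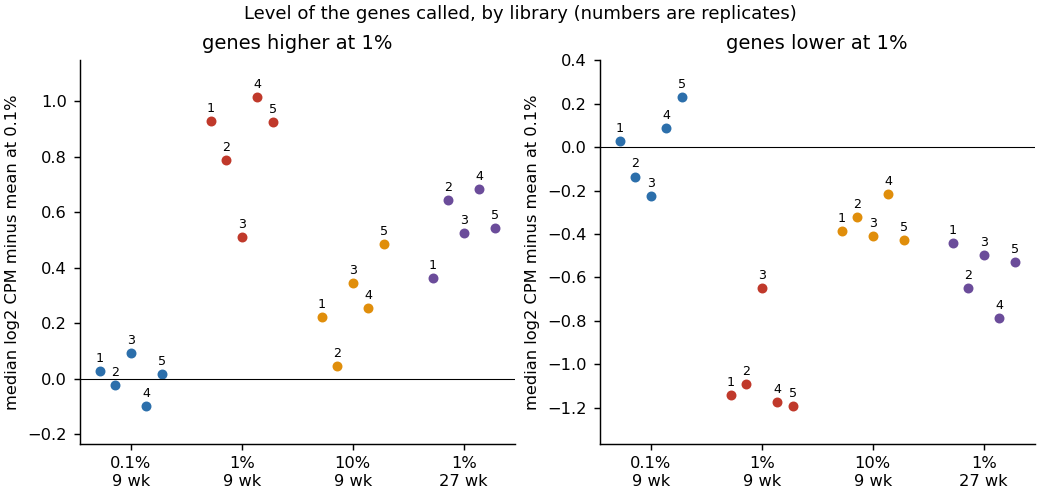
Median over the 663 higher (left) or 496 lower (right) genes of log2 CPM minus the mean at 0.1%, in each of the 20 libraries, with numbers giving the replicate; the 3 doses at 9 weeks run from low to high and the 27-week group stands last. Replicate 3 at 1% and 9 weeks, at 0.51 and -0.65, lies nearest to 0 of its group in both lists.

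The comparison of 10% with 0.1% at 9 weeks also crosses both count tables. It shares the 0.1% libraries with the comparison described here, and these libraries helped to choose the lists. The direction of the list medians given below is therefore partly fixed by that choice, and they are a description. Of 18087 genes tested there, 0% were called (edgeR, smallest adjusted p = 0.258), with 2600 genes at an unadjusted p under 0.05 and 307 called by DESeq2. Of the genes lower at 1%, the 496 tested there had a median log2 change of -0.38 at 10% over 0.1%, against -1.08 at 1% over 0.1%. For the 659 higher genes tested there, it was 0.26 at 10% over 0.1% and 0.84 at 1% over 0.1%.

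Without replicates 1 and 4 at 0.1%, 731 genes were higher and 278 lower at 1%, 5.52% of 18283 tested (edgeR, adjusted p under 0.05). With the libraries apart included, the lower list was longer and the higher list shorter. Of the higher genes, 383 were called in both fits, 57.8% of the list from 10 libraries and 52.4% of the list from 8. Of the lower genes, 218 were called in both, 44.0% of the list from 10 libraries and 78.4% of the list from 8. All 663 and 496 genes called with 10 libraries kept their direction with 8, which share the libraries. Their median log2 change was 0.86 without the libraries apart and 0.84 with them for the higher genes, and -0.97 and -1.08 for the lower.

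Large differences that were not called are described next. The choice of such genes favours those in which a few 0.1% libraries are high and the spread is wide, so the values that follow are a description of them and no test of the libraries apart. At least 2-fold lower at 1% but not called were 1029 genes, against 238 that were at least 2-fold higher and not called. In 757 of the 1029 (73.6%) replicates 1 and 4 were both above the other 3 libraries at 0.1%, as in 22.8% of all genes tested. The same order held in 109 of the 496 called lower genes (22.0%) and in 79 of the 663 called higher genes (11.9%). Without both libraries the median log2 change of the 1029 genes was -0.11, against -1.51 with them, and 463 of them were then higher at 1%. Among 407 genes called with the 8 libraries and not with 10, 63 were called higher at 1% although their fitted change with 10 libraries was negative.

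**Figure D5:**
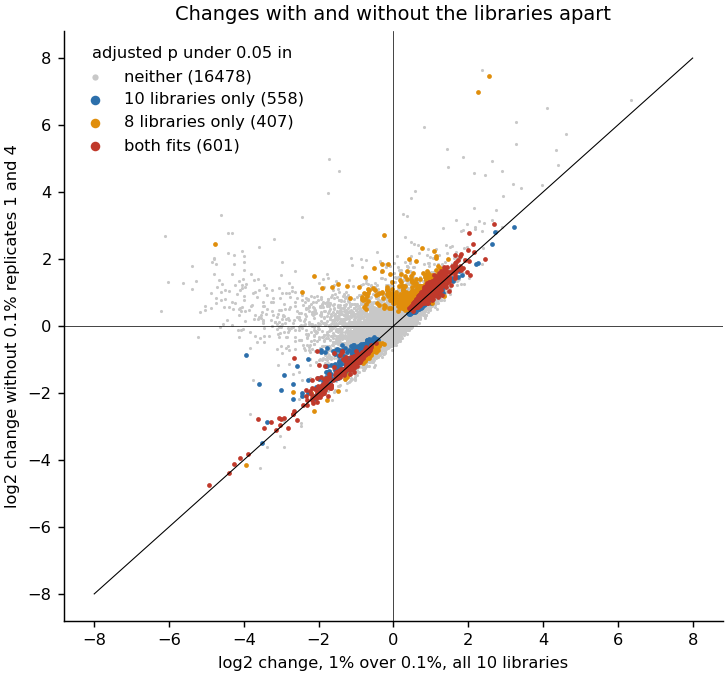
Log2 change, 1% over 0.1%, of 18044 genes with all 10 libraries (x axis) and without 0.1% replicates 1 and 4 (y axis), with the line of equal change; colours mark genes called in both fits (601), with 10 libraries only (558) and with 8 libraries only (407). Genes called in both fits lie near the line, while a cloud of grey points at large negative values on the x axis lies near 0 on the y axis.

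The spread between libraries differed by dose and by list. Over all genes tested the median SD of log2 CPM was 0.33 at 1% and 0.38 at 0.1%, and 0.24 among the 3 libraries at 0.1% left without those apart. This last value rests on fewer libraries, after those apart were taken out, so it is not directly comparable with the others. In the higher genes it was 0.27 at 1% and 0.21 at 0.1%. The smaller SD was at 1% in 210 of the 663 (31.7%), against 58.2% of all genes tested. In the lower genes the median SD was 0.35 at 1% and 0.33 at 0.1%, and 224 of the 496 (45.2%) had the smaller SD at 1%. A small spread favours a call, so these values describe the lists only.

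By number of reads, called genes were most frequent at middle levels. Among 5583 genes with a mean log2 CPM of 4 to 6, 293 were higher and 231 lower, 9.39% in all. Among 1405 genes below a log2 CPM of 0 it was 9 and 9 genes, 1.28%, where the median SE of a log2 change was 0.45 against 0.18 at log2 CPM 4 to 6. Among 406 genes at 8 or more it was 1 higher and 4 lower, 1.23%, although the median SE there was 0.21. Of the 100 most abundant genes, with 36.5% ± 4.43 of reads at 1% and 37.2% ± 6.71 at 0.1% (SD, n = 5 each), 1 was lower and 0 were higher. Their median absolute log2 change was 0.061, and 0 of the 10 most abundant genes were called, with log2 changes between -0.47 and -0.033 (smallest edgeR adjusted p = 0.456).

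Transcript length, which could be recovered for 94.2% of tested genes, moved little with the change. Across these 16988 genes, which share the 10 libraries and their depth, the Spearman correlation of length with log2 change was -0.076. Among the longest genes, above 5478 bases, 2.35% of genes were called higher and 3.18% lower, and the median log2 change was -0.10 (-0.072 without replicates 1 and 4 at 0.1%). Among the shortest, below 1194 bases, these shares were 4.00% and 2.53%, with a median of 0.0017 (0.018 without both libraries). In the length groups between, from short to long, 3.56%, 4.98% and 4.56% were called higher. The share called higher thus did not fall steadily with length. Called lower in the same groups were 2.68%, 3.15% and 2.97%. With a length trend removed from each library 1180 genes were called, 633 of them in the higher and 467 in the lower list described here.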

How the data were processed

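RNA of skin was sequenced after TruSeq library preparation, per the labels' protocols. The submitters' processing notes name featureCounts 1.4.6-p4, STAR 2.4.1d and CASAVA 1.8.2. Genome build, annotation and strandedness were not given in the sources used here. Count tables were deposited with whole numbers of reads for each gene, not normalized. The RPKM the authors deposited were divided by a vector of 35 values recycled down the rows, not by 1 total per library. Of these values 20 were matched to library totals. The RPKM served here only to recover gene lengths and to relate the tables. Of the columns, 10 of counts and 9 of RPKM match no sample described here and were not used.

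Columns were matched by title, groups taken from dose and age in the labels, and replicates numbered in accession order, which pairs nothing. Replicates differed beyond sampling noise (smallest chi-square per degree of freedom 71.2). The fit used R 4.3.3 and edgeR 4.0.16 on the 10 libraries (filterByExpr, trimmed mean normalization TMM, glmQLFit, glmQLFTest, two-sided, Benjamini-Hochberg over all genes tested). Pooling the spread over all 20 libraries was an alternative. The test was also run on simulated counts of independent libraries. None of these was made to stand apart, so that run does not bear on the effect of 0.1% replicates 1 and 4. CPM were scaled with TMM factors from the 20 libraries together, and a prior count of 2 was added before taking log2. SEs were derived from the change and its F statistic. Alternatives used DESeq2 1.42.0 and limma 3.58.1, other normalizations and filters, other sets of libraries, and a length trend; those for 10% against 0.1% were added after seeing the data. Genes given by identifier had to be called with and without 0.1% replicates 1 and 4, reach a mean log2 CPM of 1 and not overlap between doses; in each direction the largest change and highest level were taken. Members, gene rule and alternatives were chosen with earlier results of these data known. With 21770720 to 26962187 reads a library, counting error matters mainly for genes at low levels. Near-identical or overlapping genes cannot be separated in these counts.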

Additional observations from a re-analysis of the deposited data

Results flagged for a closer look

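Replicate 3 at 1% lay apart from the other 4 libraries of its group in the genes lower at 1%. Their median log2 level relative to 0.1% was -0.65 there, against -1.19 to -1.09 in the other 4. These genes took 1.84% of its reads, against 1.07% to 1.201% in the other 4. Each gap, as a share of the group's range, passes Dixon's critical value. They were the 2 flags among 22 groups of values examined, both rest on the same genes and library, and chance passes about 1 group in 20. The lower genes were chosen with these same libraries, so that rate need not hold for them. Both flags are a description.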

How the results depend on the processing

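The number of called genes, 1159, stayed within 1.5 times under RLE and upper quartile normalization, the weaker and the stricter filter, edgeR's robust setting, the length trend and the fit without replicates 1 and 4 at 0.1%, between 914 and 1295. It was 2275 with the 15 libraries at 9 weeks in the fit (1218 higher, 1057 lower), 3473 with all 20 (1585 and 1888), 2927 with DESeq2 (1407 and 1520) and 1862 with limma voom and quality weights (1075 and 787). Genes were filtered anew for the libraries of each fit, so the number tested with 15 or 20 libraries can differ from 18044. The excess of higher genes turned with all 20 libraries and with DESeq2. The share of higher genes was 57.2%, and 72.5% without replicates 1 and 4 at 0.1%, 68.1% without replicate 2 at 1%. Leaving out 1 library gave 339 to 1598 called genes. Of the genes called here, 655 higher and 485 lower were also called with all 20 libraries, 662 and 495 with DESeq2, and 650 and 454 with limma. Of the 4 genes named, none reversed in the 21 alternatives. The differences in library totals, genes detected and share of the 10 most abundant genes did not pass the threshold in any alternative. When 1 library was left out, the difference in genes detected ran from -255.5 to 10.45, against -136.8 with all. That in the share of the 10 most abundant genes ran from -1.99 to 1.45, against -0.398. The sign of both was thus not stable. No alternative for these summaries left out both replicates 1 and 4 at 0.1%. For 10% against 0.1%, DESeq2 called 307 genes (119 higher, 188 lower). Precision was lowest for genes below a log2 CPM of 0, with a median SE of 0.45; the part of depth in it was not tested. The cause of these differences was not tested.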
